A study of Mus musculus with 9 samples.

Results

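The genes described here are 10 of the 25085 genes counted in the series, taken as a fixed list of names: the neuropeptide precursors Calca, Calcb, Tac1, Gal, Adcyap1, Npy and Sst, and the granin family members Vgf, Scg2 and Chga. This list was chosen with earlier results of these data known. All 10 were found in the files, and 9 had enough reads to be tested; Sst did not. The series measured polyadenylated RNA in purified primary mouse cultures of dorsal root ganglion (DRG) neurons, oligodendrocyte progenitor cells (OPC) and astrocytes, with 3 biological replicate experiments for each cell type. DRG neurons, the sensory neurons that lie beside the spinal cord, were taken at embryonic day 13.5 and kept about 2 weeks in culture. OPC, the proliferating precursors of the myelin-forming oligodendrocytes, were taken from cortex at postnatal days 6 to 9 and were kept 6 to 7 days. Astrocytes came from cortex at postnatal days 1 to 3 and were grown for about 21 days, to confluence. The glial cultures came from animals of either sex. No culture carried a treatment or an engineered allele named in the labels, and neither strain nor number of animals per culture was stated in the labels. Donor age, time in culture and, for DRG neurons, tissue of origin changed together with cell type, so that these cannot be told apart.

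A neuropeptide is made as a longer precursor that enters the secretory pathway, is sorted into dense-core vesicles, and is cut and trimmed there by prohormone convertases, carboxypeptidases and an amidating enzyme before release. Granins are acidic proteins of the same vesicles that help to pack their content and are themselves cut into peptides. In sensory ganglia, calcitonin gene-related peptide (CGRP) and substance P mark a large class of pain- and itch-sensing neurons, whereas galanin, PACAP and neuropeptide Y are best known there as peptides whose precursors increase after nerve injury.

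Assigned reads per library ran from 30710093 to 53594210. Marker sums were highest under the matching label, although single markers on these lists could go the other way. Pan-neuronal markers summed to 29423 to 53312 CPM (reads per library size after scaling by TMM factors) in the DRG libraries, against 423 to 546 in the glial libraries. Sensory neuron markers summed to 6651 to 6858 CPM in DRG, 566 to 1487 in astrocytes and 328 to 546 in OPC. Prph and Runx1 from that list were at 0 counts in every library, which does not show absence, since reads shared by isoforms were set aside. OPC markers summed to 5101 to 6860 CPM in OPC, 341 to 1311 in astrocytes and 13.2 to 29.1 in DRG. Astrocyte markers summed to 6340 to 7993 CPM in astrocytes, 961 to 1162 in OPC and 1230 to 1434 in DRG. Astrocytes replicate 1 stood apart in markers of other cells, with 2867 CPM of microglia markers (496 and 461 in replicates 2 and 3) and 427 CPM of fibroblast and mural markers (4966 and 6239). DRG replicate 1 had 53312 CPM of pan-neuronal and 3108 CPM of Schwann and satellite glia markers, against 29423 and 33379, and 8281 and 7016, in DRG replicates 2 and 3. Because the RNA came from whole cultures, fewer cells making a transcript and less of it per cell cannot be told apart in any value below.

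DRG neurons held most of the neuropeptide and granin RNA of the series. The 10 genes summed to 1864 ± 259 CPM in DRG neurons (SD, n = 3), against 53.1 ± 10.5 for OPC and 30.3 ± 10.2 for astrocytes, and the lowest DRG library (1665 CPM) lay far above the highest glial one (60.2 CPM). In DRG neurons against astrocytes, 8 of the 9 tested genes were higher and 1, Npy, was lower, where 27.4% of all 14850 tested genes were higher and 32.7% lower (edgeR quasi-likelihood F-test, Benjamini-Hochberg adjusted p under 0.05). In DRG neurons against OPC the same 8 genes were higher, none was lower, and Npy did not pass. The shares over all genes were 28.4% higher and 31.1% lower. Calcb, Gal and Adcyap1 had at most 4 reads in any glial library, so only the DRG libraries brought them past the low-count filter. Their calls as higher in DRG neurons were thus close to fixed in advance and are no independent support. The median log2 fold change of the 9 was 6.41 against astrocytes and 6.80 against OPC, where the medians over all tested genes were -0.13 and -0.08. Both medians of the 9 include Calcb, Gal and Adcyap1, and the first is the value of Gal, so they carry the same limit. In OPC against astrocytes, Chga was higher, Calcb, Npy and Scg2 were lower, and 5 genes did not pass, with 26.3% of all genes higher and 25.5% lower. The plot of levels by library shows the 8 genes with separated groups and the 2 without, Npy and Sst.

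**Figure D1:**
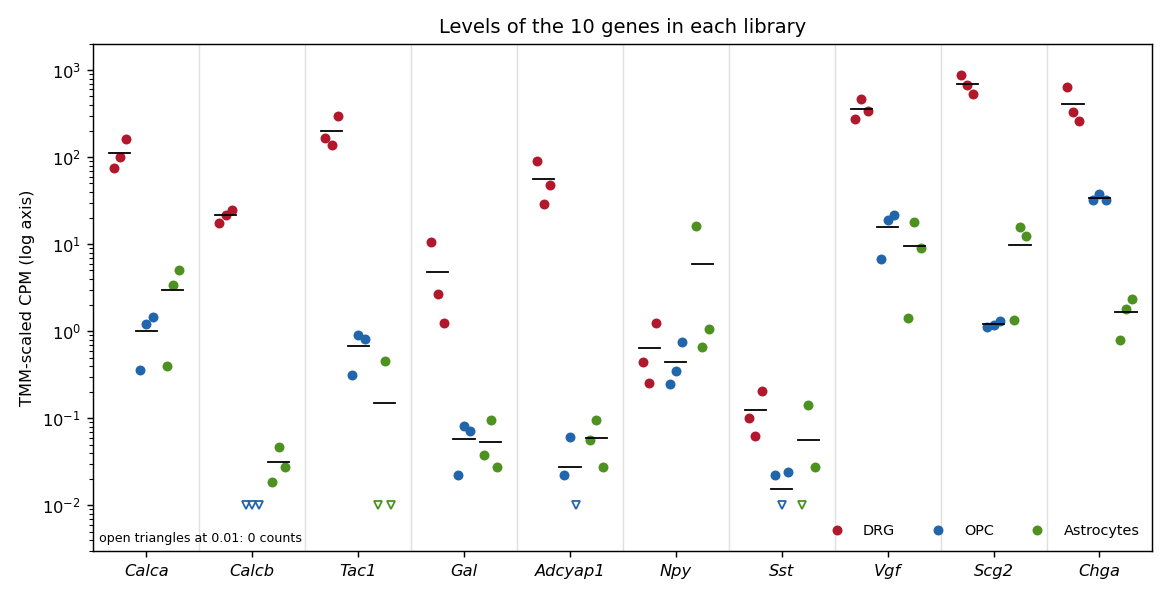
TMM-scaled CPM of the 10 genes on a log axis, 1 point per library, with DRG neurons in red, OPC in blue and astrocytes in green; black lines are means of 3 libraries, and open triangles mark libraries with 0 counts. For 8 of the 10 genes all DRG points lie above all glial points; the exceptions are Npy, with 1 astrocyte library at 16.2 CPM, and Sst, below 0.3 CPM throughout.

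**Figure D2:**
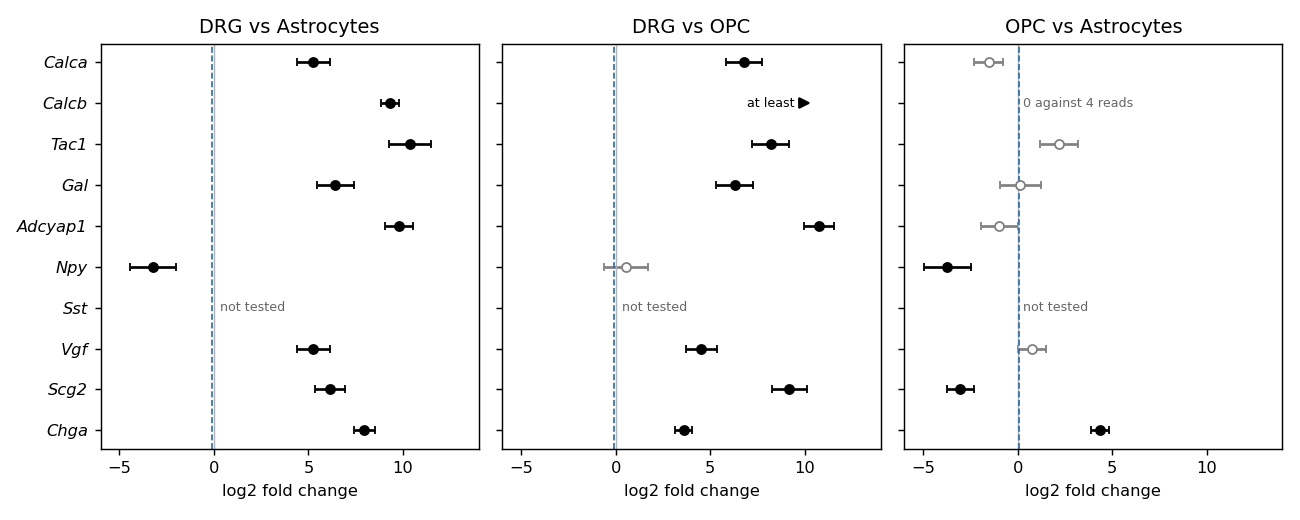
Log2 fold change of each gene in the 3 comparisons of cell types, with bars of 1 SE; filled points had an adjusted p under 0.05, open points did not, and the dashed line is the median of all tested genes. The arrowhead for Calcb in DRG against OPC is a lower bound, since OPC had 0 reads, and in each of the first 2 panels 8 genes lie at 3.60 or more.

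Calca (GRCm38.p6 chr7:114625981-114636910; all 10 genes are annotated as protein coding) encodes calcitonin and CGRP, which are made from 1 gene by alternative splicing. It stood at 75.6, 102 and 159.9 CPM in DRG replicates 1 to 3, at 0.358, 1.22 and 1.44 in OPC, and at 0.395, 3.44 and 5.09 in astrocytes. Every DRG library was therefore above every glial library, while the glial groups overlapped. Calca was higher in DRG neurons than astrocytes (log2 fold change 5.25, SE 0.88, adjusted p = 0.000800) and than in OPC (6.80, SE 0.95, adjusted p = 0.000283). Without Astrocytes replicate 3 the first of these was 5.87. OPC and astrocytes did not differ past the threshold (log2 -1.55, SE 0.79, adjusted p = 0.130), although without Astrocytes replicate 1 the adjusted p was 0.00998 (log2 -2.08), the lowest of a range up to 0.782 over all alternatives.

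The reads of Calca were split between transcripts in a different way in neurons and glia. The files list 3 accessions for the gene. One ends in the calcitonin exon, exon 4 of its GENCODE transcript (chr7:114633293-114633785, minus strand, 493 nt), which the CGRP transcript skips in favour of exons at chr7:114632416-114632599 and chr7:114631478-114631905. The other two are both tied by GENCODE to the CGRP transcript; 1 of them had 0 counts in all 9 libraries, so that its reads could be assigned only where they were not shared. The CGRP accession had 2175, 4751 and 6113 reads in the DRG libraries, against 58, 70 and 81 for the calcitonin accession. In astrocytes the order was the opposite, with 0, 10 and 13 reads for CGRP and 21, 135 and 171 for calcitonin, as it was in OPC, with 0, 8 and 11 against 16, 52 and 49.

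The CGRP accession therefore took 97.4%, 98.5% and 98.7% of assigned Calca reads in the DRG libraries, and the lowest bound of their exact 95% binomial intervals was 96.7%. In the glial libraries the highest share was 18.3% (OPC replicate 3, interval 9.52 to 30.4%) and the lowest 0% of 21 reads (Astrocytes replicate 1, interval up to 16.1%). Reads assigned to the calcitonin accession were at 1.84 ± 0.326 CPM in DRG neurons, against 2.78 ± 2.20 for astrocytes and 0.865 ± 0.443 for OPC, so their ranges overlapped between DRG neurons and astrocytes. The CGRP accession was at 110.5 ± 43.1 CPM in DRG neurons, against 0.199 ± 0.183 for astrocytes and 0.143 ± 0.134 for OPC. With this accession alone standing for the gene, the log2 fold change of Calca was 9.19 against astrocytes and 9.59 against OPC, larger than with the sum. The stretches over which each accession could collect reads of its own differ, so the shares compare libraries and are no ratio of molecules, and intervals cover counting error only.

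**Figure D3:**
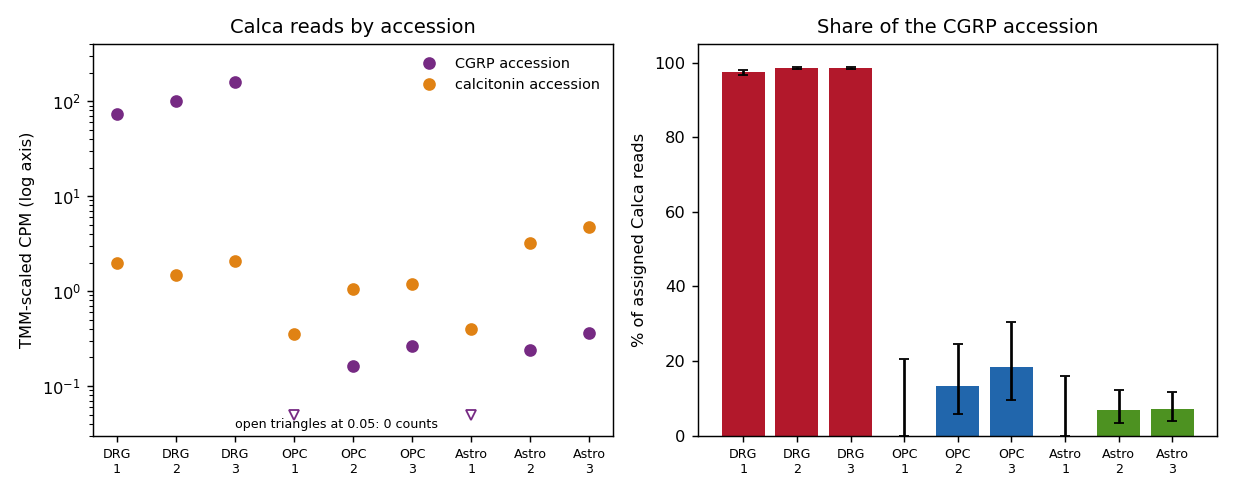
Left, TMM-scaled CPM of Calca reads assigned to the CGRP accession (purple) and to the calcitonin accession (orange) in each library on a log axis, with open triangles for 0 counts; right, the CGRP accession's share of assigned Calca reads in percent with exact 95% binomial intervals. The 3 DRG bars stand at 97.4 to 98.7% and no glial bar is above 18.3%.

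Calcb (chr7:114716555-114723368), which encodes the second form of CGRP, lies 79644 bp from Calca. It had 522, 1030 and 964 reads in the DRG libraries, 1, 2 and 1 in astrocytes and 0 in all 3 OPC libraries. In CPM this was 17.7, 21.7 and 24.9 in DRG neurons, the smallest spread between replicates of the 9 tested genes (highest over lowest, 1.41). Calcb was higher in DRG neurons than astrocytes (log2 9.32, SE 0.48, adjusted p = 6.49e-06), by a ratio of pooled reads of 714 (95% counting interval 279 to 2623). Against OPC it was at least 981-fold higher, counting 3 reads over the group as the floor (adjusted p = 6.74e-06). The call of lower Calcb in OPC than astrocytes (adjusted p = 0.0360) rests on 0 against 4 reads, and 6 of 16 alternatives ended it, among them leaving out Astrocytes replicate 2 or any one OPC library (adjusted p over alternatives 0.0319 to 0.0985).

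Tac1 (chr6:7555061-7562978) encodes substance P and neurokinin A. It was at 165, 136 and 298 CPM in DRG neurons, against 0.313, 0.916 and 0.818 in OPC and 0, 0.451 and 0 in astrocytes. All of its 19 astrocyte reads came from replicate 2. Tac1 was higher in DRG neurons than astrocytes (log2 10.37, SE 1.13, adjusted p = 6.47e-05; pooled ratio 1367, interval 875 to 2271) and than in OPC (8.18, SE 1.00, adjusted p = 0.000130; pooled ratio 288, interval 235 to 357). Without Astrocytes replicate 1 the log2 fold change against astrocytes was 9.70, and without replicate 2 astrocytes had 0 reads. The difference between OPC and astrocytes (log2 2.19, SE 1.01, adjusted p = 0.0963) did not pass with all libraries; without Astrocytes replicate 2 it did (adjusted p = 0.00247; range over alternatives up to 0.368), with 0 reads on the astrocyte side.

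Adcyap1 (chr17:93198245-93206541), the precursor of PACAP, was at 91.0, 28.7 and 47.8 CPM in DRG neurons and had at most 4 reads in any glial library. DRG replicate 1 was thus 3.18 times as high as replicate 2, yet the lowest DRG library held 1361 reads. The gene was higher in DRG neurons than astrocytes (log2 9.78, SE 0.75, adjusted p = 9.15e-06) and than in OPC (10.76, SE 0.80, adjusted p = 1.02e-05), with 5904 pooled reads against 8 and 4. Without OPC replicate 2 the latter was 11.90. Its locus overlaps the predicted gene Gm32465, and how strand was used in counting is not given in the sources used here, so reads of the pair cannot be told apart.

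Gal (chr19:3409915-3414544), the precursor of galanin, was the most uneven of the peptides within DRG neurons. Its levels were 10.5, 2.72 and 1.24 CPM in DRG replicates 1 to 3, an 8.47-fold range, against 0.0224 to 0.0814 in OPC and 0.0276 to 0.0950 in astrocytes. The lowest DRG library was still above all 6 glial libraries. Axon injury genes summed to 2345, 2211 and 1970 CPM in the same 3 libraries; their part in the spread of Gal was not tested. Gal was higher in DRG neurons than astrocytes (log2 6.41, SE 0.98, adjusted p = 0.000469) and than in OPC (6.28, SE 0.97, adjusted p = 0.000482), and without DRG replicate 1 these values were 5.15 and 5.01. Without Astrocytes replicate 2 the first was 7.05.

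Npy (chr6:49822710-49829507), the precursor of neuropeptide Y, did not follow the others. It had 0.440, 0.253 and 1.24 CPM in DRG neurons, 0.246, 0.346 and 0.746 in OPC, and 16.2, 0.665 and 1.05 in astrocytes. Only Astrocytes replicate 1, with 859 reads, stood clear of the rest, and the 3 groups otherwise overlapped. With all libraries Npy was lower in DRG neurons than astrocytes (log2 -3.21, SE 1.21, adjusted p = 0.0441) and lower in OPC than astrocytes (-3.74, SE 1.24, adjusted p = 0.0310). Both calls ended without that library, at log2 -0.42 (adjusted p = 0.642) and -0.94 (adjusted p = 0.316), and over all alternatives their adjusted p ran from 0.0174 to 0.706 and from 0.0129 to 0.316. Both also ended without any one OPC library, and the first without DRG replicate 1 or 2. DRG neurons and OPC did not differ past the threshold (log2 0.53, SE 1.18, adjusted p = 0.716). Microglia markers, all 10 of which reached 1 CPM on average in astrocytes with none at 0, summed to 2867 CPM in the library with high Npy. They summed to 496 and 461 in the other astrocyte libraries. Central neuron markers summed to 145 CPM in that library and to 39.4 and 49.5 in the others. In the DRG libraries, where Npy was low, the central neuron list summed to 262 to 366 CPM. The part of either kind of cell in the Npy level was not tested.

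Sst (chr16:23889573-23891342), the precursor of somatostatin, was close to the detection limit everywhere. It had 3, 3 and 8 reads in the DRG libraries, 0, 6 and 1 in astrocytes and 1, 0 and 1 in OPC, or 0.124 ± 0.0742, 0.0567 ± 0.0755 and 0.0155 ± 0.0134 CPM. The ratio of pooled reads of DRG neurons to OPC was 8.19 with a counting interval of 1.88 to 74.2, and that of DRG neurons to astrocytes was 2.27 (0.858 to 6.65). It was left out by the filter on low counts; with no such filter its adjusted p was 0.420 for DRG neurons against astrocytes and 0.0930 against OPC. No difference passed the threshold at these counts, although every DRG library lay above every OPC library. The interval of that ratio covers counting error only.

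The 3 granins made up most of the summed CPM, which is not scaled by length, in DRG neurons (78.3 ± 8.91%) and nearly all of it in OPC (96.0 ± 1.5%). In astrocytes their share was 17.7%, 87.8% and 79.3% in replicates 1 to 3. They differed from each other in how much of the RNA was also found in glia. In OPC, Scg2 was at 1.20 ± 0.0922 CPM, against 33.9 ± 3.06 for Chga and 15.8 ± 7.94 for Vgf.

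Scg2 (chr1:79434366-79440026) encodes secretogranin II, the source of secretoneurin. It was at 880, 679 and 534 CPM in DRG neurons, against 1.12, 1.18 and 1.30 in OPC and 1.35, 15.9 and 12.6 in astrocytes. The OPC libraries lay close together and all below the lowest astrocyte library. Scg2 was higher in DRG neurons than astrocytes (log2 6.14, SE 0.80, adjusted p = 0.000181) and than in OPC (9.18, SE 0.92, adjusted p = 4.19e-05). It was lower in OPC than astrocytes (log2 -3.04, SE 0.72, adjusted p = 0.00653), and without Astrocytes replicate 1 and OPC replicate 3 together this was -3.78.

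Chga (chr12:102554941-102565027) encodes chromogranin A, a core protein of dense-core granules. DRG replicates 1 to 3 had 640, 329 and 260 CPM, OPC had 32.2, 37.4 and 32.0, and astrocytes had 0.790, 1.83 and 2.38. The 3 groups were fully separated, with OPC in between. Chga was higher in DRG neurons than astrocytes (log2 7.95, SE 0.55, adjusted p = 5.26e-06) and than in OPC (3.60, SE 0.45, adjusted p = 0.000140). It was also the only one of the 10 genes that was higher in OPC than astrocytes with all libraries in the fit (log2 4.36, SE 0.47, adjusted p = 0.000116), by a ratio of pooled reads of 21.8 (interval 19.0 to 25.2). Of the 9 pan-neuronal markers tested, 5 were higher in OPC than astrocytes and 2 lower, where 26.3% and 25.5% of all genes were. The count lower lay near this background. Their median log2 fold change was 2.58, against 0.09 over all genes, while their sum was 485 to 546 CPM in OPC and 423 to 512 in astrocytes. Elavl3, at 122 ± 25.7 CPM in OPC and 5.54 ± 1.63 in astrocytes, was among those higher, Uchl1 and Stmn2 were lower, and Rbfox3 was at 0 counts in both. The part of these markers' cells in the OPC level of Chga was not tested.

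Vgf (chr5:137025301-137033351) encodes a granin-like precursor that is induced by nerve growth factor and gives rise to several peptides, among them TLQP-21. It was at 277, 472 and 337 CPM in DRG neurons, 6.73, 19.0 and 21.6 in OPC and 1.43, 18.0 and 8.96 in astrocytes. The DRG libraries stood above all glial libraries, and the glial groups overlapped. Vgf was higher in DRG neurons than astrocytes (log2 5.26, SE 0.86, adjusted p = 0.000702) and than in OPC (4.52, SE 0.83, adjusted p = 0.00135), while OPC and astrocytes did not differ past the threshold (0.74, SE 0.73, adjusted p = 0.425). Without Astrocytes replicate 2 the difference from astrocytes was 6.13.

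Divided by transcript length, which allows levels of different genes to be set side by side, Scg2, Chga, Tac1 and Vgf formed the top of the order in DRG neurons, at 277 ± 69.0, 218 ± 107, 162 ± 69.9 and 142 ± 38.9 CPM per kb. Neighbours within these 4 overlapped, and the lowest library of Vgf (109) was above the highest of the next gene. That was Calcb at 22.3 ± 3.76, followed by Adcyap1 at 16.5 ± 9.42, Gal at 6.11 ± 6.31 and Npy at 1.14 ± 0.926, each overlapping its neighbour, and then Sst at 0.172 ± 0.103, which did not overlap Npy. In OPC Chga led at 18.0 ± 1.63 CPM per kb, above Vgf at 6.18 ± 3.11 and, without overlap, all others at under 1 on average. In astrocytes Npy, Scg2, Vgf and Chga, at 10.5 ± 15.6, 3.95 ± 3.02, 3.71 ± 3.25 and 0.884 ± 0.428, overlapped their neighbours in that order. Calca was left out because its accessions differ in the sequence that could be counted.

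The DRG replicates did not rank in 1 way across the genes. Replicate 1 was the highest for Gal, Adcyap1, Scg2 and Chga, replicate 2 for Vgf, and replicate 3 for Calca, Calcb, Tac1, Npy and Sst. Pan-neuronal markers were highest in replicate 1; their part in the levels of the first 4 genes was not tested. Among astrocytes, replicate 1 had the lowest level of Calca, Calcb, Vgf, Scg2 and Chga and the highest of Npy, which took 79.8% of its summed level against 1.64% and 3.48% in replicates 2 and 3.

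Over the 9 libraries, the genes whose pattern of log2 CPM around their own mean was most like that of each member were taken by the smallest root mean square difference. For Calcb these were Cntnap5c (0.31), Galnt5 (0.33) and Mctp2 (0.35), and for Adcyap1 Nhlh2 (0.36), Cntnap5a (0.47) and Hoxc10 (0.48). Chga was closest to Dusp26 (0.29), Tac1 to Phf24 (0.56), Calca to Htr1b (0.59), Vgf to Tmem184b (0.47) and Gal to Ces2g (0.35). For Npy the nearest was Olfml3 (0.55), at 56.6, 6.06 and 5.75 CPM in astrocytes and 1.05 to 4.36 CPM in the other 6 libraries, so that it shared the high first astrocyte library. The 2 members most like each other were Calcb and Adcyap1 (0.68). Both had few or no reads in the glial libraries, as did Gal. Likeness of these 3 genes to others that are near 0 in glia therefore partly reflects a shared floor.

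The promoters of these genes were read for the cAMP response element, the site of CREB that was described in the somatostatin promoter, because 8 of the genes were high in the same 3 libraries. RefSeq promoter windows of GRCm38.p6, from 250 bases before to 50 after a transcript start, matched 8 of the 10 genes (9 windows; Calcb and Vgf had none). The full palindrome TGACGTCA was in 2 genes, Sst and Scg2, where 2.03% of all 27025 genes with a window hold it (1.79% of 32851 windows). The shorter TGACG, on either strand and outside the palindrome, was in 5 more (Calca, Tac1, Gal, Adcyap1 and Chga), and Npy had neither. With the palindrome counted in, TGACG on either strand was in 7 of the 8 genes, where 23.0% of all genes hold it (20.8% of windows). Both full motifs and the short one nearest the start in 4 other genes are shown 5′ to 3′ on the strand of the gene with the motif in capitals, CGTCA being TGACG on the other strand, and each first base is given relative to the start.
Sst, chr16:23890875-23890902, 48 bases before the start: cctccttggcTGACGTCAgagagagagt
Scg2, chr1:79440077-79440104, 68 bases before the start: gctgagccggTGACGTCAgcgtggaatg
Chga, chr12:102554887-102554911, 44 bases before the start: ggcggtcctaTGACGtaatttcctg
Tac1, chr6:7555008-7555032, 43 bases before the start: tctacaggctCGTCAcgcctgagat
Calca, chr7:114636408-114636432, 65 bases before the start: agcacagaggTGACGcaatctgtct
Gal, chr19:3414511-3414535, 20 bases after the start: gctgagccggTGACGcggcagctcc

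Sst and Scg2, the holders of the full palindrome, were the lowest and the highest of the 9 ranked genes in DRG neurons per kb, at 0.172 and 277 CPM. Of the ranked genes with the short motif alone, Chga and Tac1 were among the top 4 there, and Adcyap1 came just above Gal, which was seventh. Npy, with neither motif, was eighth. A link between motif and level was not tested. The matches not shown were a second one in Tac1, 197 bases before the start, and 1 in Adcyap1, 91 and 242 bases before its 2 starts. A match describes the letters of these windows only.

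Genes of peptide processing went both ways between the cell types. Of 10 genes on this list, 5 were higher and 4 lower in DRG neurons than in astrocytes, 6 higher and 3 lower than in OPC, and in OPC against astrocytes 2 were higher and 2 lower. Over all tested genes the shares higher and lower were 27.4% and 32.7%, 28.4% and 31.1%, and 26.3% and 25.5%, so that the counts lower in DRG neurons and those of OPC against astrocytes lay near the background. The list's median log2 fold changes were 1.19, 1.29 and -0.22 in these comparisons, against -0.13, -0.08 and 0.09 over all genes. The prohormone convertases of dense-core vesicles stood out on the neuronal side: Pcsk1 was at 84.8 ± 7.58 CPM in DRG neurons, against 0.118 ± 0.145 for OPC and 0.0715 ± 0.0341 for astrocytes (log2 10.20 against astrocytes, SE 0.74, adjusted p = 6.70e-06). Pcsk2 was at 272 ± 4.80, 17.6 ± 2.69 and 0.999 ± 0.681 CPM, and was also higher in OPC than astrocytes (log2 4.11, SE 0.42, adjusted p = 8.50e-05), the same order of the 3 cell types as for Chga. Their binding proteins Pcsk1n, at 468 ± 34.6 CPM, and Scg5, at 633 ± 43.0 CPM, were highest in DRG neurons too.

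The trimming enzymes differed among themselves. Cpe, the carboxypeptidase that removes basic residues from cut peptides, was at 3066 ± 1563 CPM in astrocytes, against 1406 ± 188 for DRG neurons and 431 ± 107 for OPC, and was lower in DRG neurons than astrocytes (log2 -1.12, SE 0.35, adjusted p = 0.0208). Pam, which amidates peptides such as CGRP, substance P, galanin in rodents and neuropeptide Y, was at 372 ± 89.2, 191 ± 47.2 and 145 ± 11 CPM in the same order, and lower in DRG neurons than astrocytes (log2 -0.96, SE 0.24, adjusted p = 0.00715). Cpd, another carboxypeptidase, chosen here after its values were seen, was at 599.5 ± 206 CPM in DRG neurons, against 371 ± 35.5 for astrocytes and 329 ± 76.8 for OPC; it was higher in DRG neurons than OPC (log2 0.86, SE 0.28, adjusted p = 0.0226) and did not pass against astrocytes (0.69, SE 0.28, adjusted p = 0.0534). Qpct, a glutaminyl cyclase, was highest in OPC at 80.9 ± 13.1 CPM, against 32.5 ± 8.25 in DRG neurons and 9.12 ± 1.41 in astrocytes. The related convertases Pcsk5 and Pcsk6 were lower in DRG neurons than in both glial types, with Pcsk6 at 0.0495 ± 0.0451 CPM against 3.22 ± 0.234 in OPC and 6.16 ± 1.51 in astrocytes.

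Dense-core vesicle genes were higher in DRG neurons or did not pass. Of 12, 10 were higher than in astrocytes and 7 higher than in OPC, with none lower in either. Over all genes, 27.4% and 28.4% were higher and 32.7% and 31.1% lower. The list's median log2 fold changes were 3.15 and 2.27, against -0.13 and -0.08 over all genes. Syt4, a vesicle synaptotagmin, was at 755 ± 165 CPM in DRG neurons, against 8.09 ± 3.30 for OPC and 0.632 ± 0.523 for astrocytes. Ptprn, a membrane protein of these vesicles, was at 512 ± 78.0, 9.80 ± 4.27 and 5.53 ± 4.42 CPM, and Cadps, a priming factor for their release, at 63.3 ± 26.7, 2.47 ± 0.764 and 0.908 ± 0.554.

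OPC and astrocytes also differed in this list. In OPC, 6 of the 12 were higher than in astrocytes and 2 lower, where 26.3% and 25.5% of all genes were. The median was 1.15, against 0.09 over all genes. Syt7, a calcium sensor, was at 7.18 ± 2.76 CPM in OPC and 12.7 ± 1.76 in DRG neurons, a difference that did not pass (log2 0.82, SE 0.41, adjusted p = 0.109), and OPC were above the 0.0877 ± 0.0526 CPM of astrocytes (log2 6.34, SE 0.55, adjusted p = 4.03e-05). Hid1, a dense-core vesicle assembly factor, was at 136 ± 21.5 CPM in OPC, against 211 ± 27.8 for DRG neurons and 24.1 ± 12.7 for astrocytes. Cyb561, the vesicle cytochrome that supplies electrons for amidation, went the other way, at 0.109 ± 0.0289 CPM in OPC, against 12.8 ± 2.38 for astrocytes and 115 ± 49.3 for DRG neurons.

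**Figure D4:**
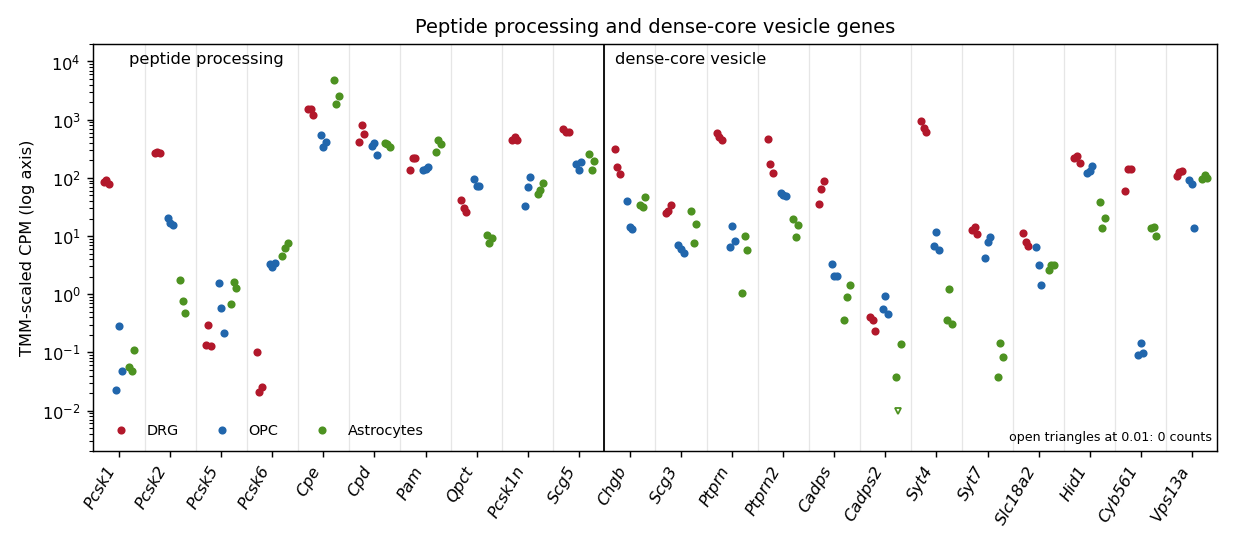
TMM-scaled CPM on a log axis of the 10 peptide processing genes (left of the black line) and the 12 dense-core vesicle genes (right), 1 point per library, with DRG neurons in red, OPC in blue, astrocytes in green and open triangles for 0 counts. Pcsk1, Pcsk2, Ptprn, Cadps and Syt4 have DRG points far above the rest, while Cpe and Pam are highest in astrocytes and Qpct in OPC.

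Other neuropeptide precursors were mostly too low to test: 14 of 35 passed the filter. Of these, 6 were higher and 4 lower in DRG neurons than in astrocytes, 5 higher and 4 lower than in OPC, and 3 higher and 3 lower in OPC than in astrocytes. The shares over all genes were 27.4% and 32.7%, 28.4% and 31.1%, and 26.3% and 25.5%, and the counts lower in DRG neurons and those of OPC against astrocytes lay near them. Those higher in DRG neurons against both glial types with at least 1 CPM were Nts (neurotensin), at 3.70 ± 0.768 CPM, Nmb (neuromedin B), at 3.46 ± 2.34, and Cartpt, at 1.71 ± 0.185. In astrocytes those higher than in DRG neurons at 1 CPM or more were Npvf, the precursor of RFamide-related peptides, at 25.4, 54.3 and 81.8 CPM in replicates 1 to 3, with 0 reads in all DRG libraries and at most 0.0611 CPM in OPC, and Nppc, the precursor of C-type natriuretic peptide, at 15.9, 3.66 and 8.87 CPM. Nucb2, the nucleobindin that holds the nesfatin sequence, was at 14.9, 29.2 and 26.3 CPM in astrocytes and 17.4 ± 3.44 in DRG neurons, and lower in OPC, at 7.14 ± 2.41, than in both.

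Receptors for the peptides were found in all 3 cell types, and 19 of 24 were tested. In DRG neurons 6 were higher and 6 lower than in astrocytes and 8 higher and 7 lower than in OPC; in OPC 5 were higher and 4 lower than in astrocytes. Against shares over all genes of 27.4% and 32.7%, 28.4% and 31.1%, and 26.3% and 25.5%, the counts against astrocytes lay near the background. The CGRP receptor needs both Calcrl and its partner Ramp1. Calcrl was at 35.9 ± 30.3 CPM in OPC, against 8.89 ± 2.23 for DRG neurons and 1.08 ± 0.798 for astrocytes. Ramp1 was at 97.8 ± 36.8 CPM in OPC and 38.4 ± 1.01 in astrocytes but only 0, 0.0211 and 0.0774 CPM in the DRG libraries, that is, lower in DRG neurons than astrocytes (log2 -10.01, SE 0.56, adjusted p = 2.22e-06) and OPC (-11.35, SE 0.58, adjusted p = 2.23e-06). Assigned reads of Ramp1 were thus scarce in the cultures with the most Calca and Calcb RNA.

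Ramp2, which pairs with Calcrl to bind adrenomedullin, was also highest in OPC (15.0 ± 2.57 CPM), and Calcr, the calcitonin receptor, had 0 counts in every library. These 0 counts do not show absence, since reads shared by isoforms were set aside. The substance P receptor Tacr1 was at 8.14 ± 4.74 CPM in astrocytes, against 2.38 ± 2.85 for DRG neurons and 0.150 ± 0.0982 for OPC, higher in the first 2 than in OPC (adjusted p = 0.00264 and 0.0103). Galr2, a galanin receptor, was at 2.91 ± 1.36 CPM in astrocytes and 2.62 ± 1.19 in DRG neurons, against 0.307 ± 0.0833 in OPC. The PACAP receptor Adcyap1r1 was highest in OPC at 2.32 ± 0.819 CPM, against 0.541 ± 0.625 in DRG neurons and 0.0778 ± 0.0316 in astrocytes.

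Of the neuropeptide Y receptors, Npy2r was read only in the DRG libraries (2.33, 1.41 and 1.32 CPM, with 0 reads in all 6 glial libraries), and Npy4r was at 3.05 ± 2.03 CPM there against under 0.15 CPM in each glial library. Among somatostatin receptors, Sstr2 was highest in astrocytes (3.89 ± 2.10 CPM) and Sstr1 had its highest mean in OPC (2.82 ± 1.45 CPM, with no difference past the threshold). C3ar1, which also binds the Vgf peptide TLQP-21 and is a gene of microglia, was at 148, 24.9 and 37.3 CPM in astrocytes, highest in the replicate with the most microglia markers; the part of those cells in its level was not tested.

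**Figure D5:**
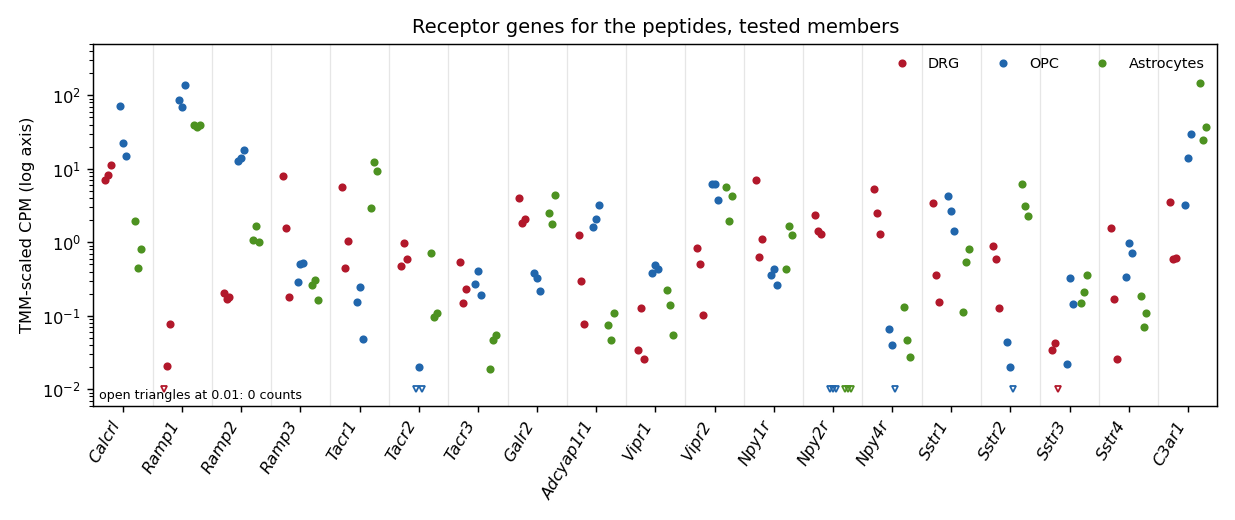
TMM-scaled CPM on a log axis of the 19 tested receptor genes, 1 point per library, with DRG neurons in red, OPC in blue, astrocytes in green and open triangles for 0 counts. Ramp1 and Ramp2 are lowest in DRG neurons, Calcrl and Ramp1 are highest in OPC, and Npy2r was read in DRG libraries only.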

How the data were processed

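Per the submitters' processing notes, reads were aligned to mm10 with TopHat2 and assigned with HTSeq; tool versions, the RefSeq release and the strand setting are not given in the sources used here. Raw counts were deposited per RefSeq accession, not normalized by the authors, with 5 rows of unassigned reads, which were kept out. Reads shared by isoforms were set aside as ambiguous (22.0 to 24.7% of reads). A count of 0 could therefore also arise for a transcribed gene whose isoforms share their sequence. Of 33787 accessions, 32417 were named from RefSeq (GRCm38.p6), 187 from GENCODE vM21, and 1183 kept their identifier; counts were summed to 25085 genes. All 9 libraries entered 1 edgeR 4.0.16 model in R 4.3.3 (TMM, filterByExpr with minimum count 10, quasi-likelihood F-test, 1 coefficient per cell type, 6 residual degrees of freedom), tested on simulated data. Benjamini-Hochberg adjustment ran over 14850 genes (threshold 0.05). Each SE was derived from the log2 fold change and the F statistic (their quotient, after taking the root of F). Alternatives included DESeq2 1.42.0.

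The members and gene lists were chosen with earlier results of these data known. Named list genes had the 4 largest changes per comparison and direction, with at least 1 CPM in the higher group; tested receptors could all be named. The genes most like Scg2 are not reported here. P-values measure the spread between the replicate experiments only. Deviations of libraries from their group means had correlations of -0.04 to 0.13 for same-numbered and -0.13 to 0.08 for other pairs of libraries. Such weak correlations cannot exclude a pairing by number with 3 libraries per cell type, and the main model used none.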

Additional observations from a re-analysis of the deposited data

How the results depend on the processing

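The 16 results of the 8 genes higher in DRG neurons kept direction and call in all 272 of their alternatives, and 8 genes were higher in DRG neurons in each. Among these, the results of Calcb, Gal and Adcyap1 were close to fixed in advance by the low-count filter and add no support. The count of genes lower in DRG neurons than in astrocytes (1, Npy) became 0 with DESeq2's Wald test, where Npy had no adjusted p, with the compared libraries alone, with the replicate block (log2 -2.54, adjusted p = 0.137) and without Astrocytes replicate 1 and OPC replicate 3, and ran from 0 to 1 when 1 library was left out. The count lower in OPC than astrocytes (3) became 1 with DESeq2's Wald test and ran from 1 to 3 with 1 library left out, and the count higher in OPC ran from 1 to 2. Adjusted p of Npy ran from 0.0174 to 0.706 against DRG neurons. Reversed signs, none of them past the threshold, were Npy in DRG against OPC without DRG replicate 3 (-0.38; up to 1.35 with other libraries left out), Gal in OPC against astrocytes without Astrocytes replicate 1 (-0.09) or 3 (-0.13), OPC replicate 2 (-0.17) or 3 (-0.16) or both of the libraries above (-0.39; up to 0.77 with another left out), and Vgf in OPC against astrocytes without both (-0.22). Their cause was not tested. The replicate block changed no other call than those of Npy. Calcb, Gal and Adcyap1 had no value in OPC against astrocytes with the compared libraries alone. Library size alone moved the median of all genes from -0.13 to -0.39 in DRG against astrocytes and from -0.08 to -0.23 in DRG against OPC. Depth limits Sst, with 14, 7 and 2 reads per cell type.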
